A study of Mus musculus with 6 samples.

Results

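The CDK inhibitor genes comprise the Cip/Kip family (Cdkn1a, Cdkn1b and Cdkn1c) and the Ink4 family (Cdkn2a, Cdkn2b, Cdkn2c and Cdkn2d). They were taken by gene symbol, and all 7 were found among the 23038 genes listed for mouse primary cultured OPCs (mOPCs). The cells were purified from mouse embryos by immunopanning, which captures cells on antibody-coated dishes, and were harvested 72 hours after they received siRNA. The 3 siNC libraries came from cells given control siRNA. The 3 siQk libraries came from cells given siRNA for Qk, the gene of the Quaking RNA-binding proteins, with 3 different Qk siRNAs used in all. Which siRNA each siQk library received is not stated in the sources used here, so that the spread between siQk libraries can hold differences between siRNAs. The genotype or strain of the mice is not stated either, and no untransfected culture was analysed here.

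CDK inhibitors bind cyclin-dependent kinases and hold them inactive. Ink4 proteins bind Cdk4 and Cdk6 and keep D-type cyclins from joining them, while Cip/Kip proteins bind whole cyclin-CDK complexes, above all those of Cdk2. Active CDKs phosphorylate the retinoblastoma protein Rb1, which frees E2F factors to switch on genes of DNA replication. In the oligodendrocyte lineage, Cdkn1b is known for its part in cell cycle exit before differentiation, and its mRNA is a known target of Quaking proteins. Quaking proteins bind the RNA sequence ACUAAC or ACUAAU, which reads ACTAAC or ACTAAT in DNA letters.

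Among the longest annotated 3'UTRs of the 7 genes, only that of Cdkn1b contained either motif. The search covered the transcript strand and allowed matches to overlap. The Cdkn1b 3'UTR of 3439 bases (transcript Cdkn1b-202) contained 2 matches, which are printed with 12 bases on each side because none was found in the longest 3'UTRs of the other 6 genes. Introns, coding sequence, 5'UTRs and other transcripts were not searched. The printed windows of 30 bases lie in the 3' untranslated exon sequence of Cdkn1b on the plus strand of mm10. Their coordinates are chr6:134922866-134922895 and chr6:134925258-134925287, and the motifs in them start at bases 804 and 3196 of the 3'UTR. Capitals mark the motif.
Cdkn1b site 1: aagttcagaagtACTAATgctcccacagaa
Cdkn1b site 2: actgaaaattatACTAACttatttatgtta

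A pair of matches is common in 3'UTRs of this length. Of 1693 other tested genes with a 3'UTR within 25% of that length, 64% held at least 1 match and 32.5% held at least 2. The other 6 genes have shorter 3'UTRs, from 264 bases in Cdkn2a to 1334 bases in Cdkn1a. Among tested genes with 3'UTRs of similar length, 9.45% in the case of Cdkn2a and 31.5% in the case of Cdkn1a held a match. A match describes the letters only, and binding was not measured in these libraries.

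Libraries held 58166490 to 141045937 tags, a tag being the unit in which the authors counted reads per gene. Qk, the targeted gene, was at 209, 206 and 163 RPKM in siNC and at 51.3, 76.6 and 36.2 RPKM in siQk, where RPKM divides the tags of a gene by its exon length and the library's total. The siQk libraries thus all lay below the siNC libraries (log2 fold change -1.98, standard error 0.28, FDR 0.00311, edgeR's quasi-likelihood test). Of 9 OPC markers, 7 were at 71.1 RPKM or more in every library, while Nkx2-2 was at 18.4 to 53.8 RPKM and Cspg4, which encodes NG2, at 1.69 to 4.89 RPKM. Markers of other cells were uneven. The astrocytic Gja1 and the neuronal Stmn2 were at or below 0.013 and 0.0439 RPKM, but Gfap was at 51.4 to 101 RPKM in siNC and 9.08 to 11.3 RPKM in siQk, and Tubb3 at 68.4 to 166 RPKM over all libraries. The microglial C1qa was at 0 in every library, while P2ry12 was at 0.669 to 3.2 RPKM in siNC and 0.152 to 0.287 RPKM in siQk. The 7 fibroblast and vascular markers summed to at most 0.304 RPKM. The siNC replicate 1 library had the fewest tags, and Rn45s, which encodes ribosomal RNA, took 3.11% of them there and 0.169% to 0.389% in the other libraries.

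Of the 7 CDK inhibitors, 1 was called changed (Cdkn1a, lower in siQk), and 6 were not. All 7 passed the filter on low counts (average logCPM over 0). A transcript was called at P below 0.01 and FDR below 0.1 in the edgeR fit, with libraries scaled by TMM factors, which rest on the bulk of genes. By the same rule 31% of the 12505 tested transcripts were called, 17.2% as lower and 13.8% as higher in siQk, so that 1 call among 7 genes is no more than the share found over all genes. The median log2 fold change was -0.08 over the Cip/Kip genes and 0.13 over the Ink4 genes, against 0.01 over all tested genes. The RPKM ranges of siNC and siQk did not overlap for 2 of the 7 genes, Cdkn2a and Cdkn2b, against 58.3% of tested genes.

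**Figure D1:**
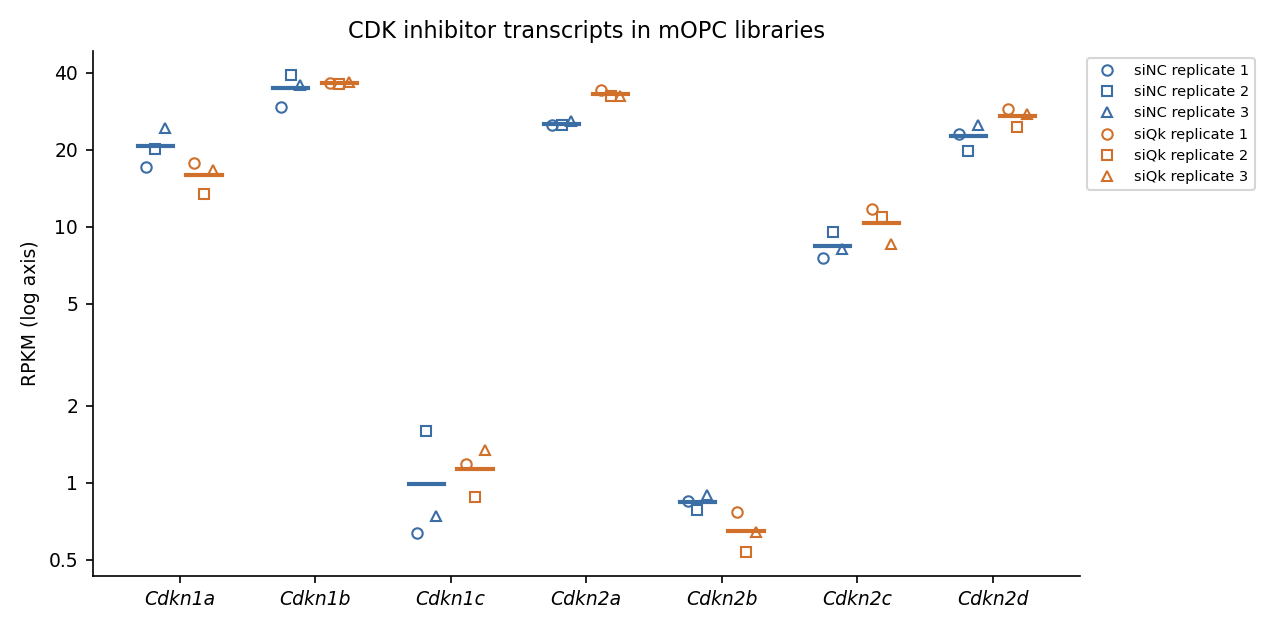
RPKM (log axis) of the 7 CDK inhibitor transcripts in each of 3 siNC (blue) and 3 siQk (orange) mOPC libraries, with marker shapes for the replicate number and bars for group means. Cdkn1b was the highest in both groups (means 34.9 and 36.5 RPKM), Cdkn1c and Cdkn2b lay near 1 RPKM or lower, and the groups do not overlap for Cdkn2a and Cdkn2b.

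Cdkn1a (Entrez gene 12575, chr17:29090976-29100727, plus strand) encodes p21, an inhibitor of cyclin-CDK complexes that p53 switches on after DNA damage. It was at 17.2, 20.2 and 24.4 RPKM in siNC and at 17.8, 13.4 and 16.6 RPKM in siQk. The siQk replicate 1 library lay above the lowest siNC library, so that the RPKM ranges overlapped (p = 0.2 in a two-sided exact permutation test, which for 3 libraries against 3 cannot go below 0.1). Once RPKM was divided by the TMM factor of each library, the values were 19.1, 21.0 and 24.7 in siNC and 17.0, 12.6 and 15.9 in siQk, and the groups no longer overlapped, as was the case for 54.4% of tested genes. The log2 fold change was -0.51 (standard error 0.14, 95% interval -0.85 to -0.18, edgeR FDR 0.0295). The unadjusted P from edgeR was 0.00878, which ranked 3723 among the 12505 genes, of which 3879 were called. The call was lost without siNC replicate 2 (log2 fold change -0.54), siNC replicate 3 (-0.40), siQk replicate 2 (-0.40) or siQk replicate 3 (-0.55), and when libraries were scaled by size only (-0.37). The exons of Cdkn1a overlap those of the annotated gene AC167363.2, and whether counting used strand is not stated.

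Cdkn1b (Entrez gene 12576, chr6:134920401-134925513, plus strand) encodes p27, the Cip/Kip protein whose accumulation accompanies cell cycle exit of OPCs. It was at 29.4, 39.3 and 35.9 RPKM in siNC and at 36.6, 36.0 and 36.9 RPKM in siQk. All 3 siQk values fell inside the siNC range, and they spread less (SD 0.432 against 5.04 RPKM). The log2 fold change was -0.08 (95% interval -0.29 to 0.13, FDR 0.493 from edgeR), an interval that holds small changes in either direction. The sign of the fold change followed the scaling, since library size only gave 0.07. Cdkn1b, the member with matches in its longest 3'UTR and one whose mRNA Quaking is known to bind, was thus not called changed at the transcript level. These libraries do not measure its protein.

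Cdkn1c (Entrez gene 12577, chr7:143458339-143461050, minus strand) encodes p57, an imprinted gene expressed from the maternal allele. It was at 0.637, 1.59 and 0.745 RPKM in siNC and at 1.19, 0.878 and 1.34 RPKM in siQk, from 72 to 342 tags per library. The siNC replicate 2 library stood above all the others, and the log2 fold change of 0.05 had a wide interval (-0.81 to 0.91, FDR 0.926 from edgeR). Without siNC replicate 2 it was 0.56 (FDR 0.116), and without siNC replicate 1 or 3 it was -0.15. Its exons overlap those of the annotated gene Gm44732.

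Cdkn2a (Entrez gene 12578, chr4:89274471-89294653, minus strand) encodes the Ink4 protein p16 and, from another first exon and reading frame, p19Arf, which stabilizes p53. The deposited value is for the whole gene, so that both products are counted together. Its siNC values were 25, 25 and 25.9 RPKM, and its siQk values were 34.1, 32.5 and 32.4 RPKM. All siQk values exceeded all siNC values (two-sided p = 0.1 by exact permutation, the minimum for 3 against 3), which held for 41.9% of tested genes. RPKM carries no TMM factor. With the factor the means were 26.7 ± 1.03 RPKM in siNC and 31.3 ± 1.04 RPKM in siQk (SD, n = 3 each), still without overlap. The log2 fold change was 0.23 (standard error 0.07, 95% interval 0.07 to 0.39, edgeR FDR 0.034). The unadjusted P of Cdkn2a from edgeR was 0.0108, which missed the cutoff of 0.01. It was called with FDR below 0.05 as the sole criterion, a cutoff that 36.9% of tested genes passed, and with library size only (log2 fold change 0.38).

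Cdkn2b (Entrez gene 12579, chr4:89306299-89311039, minus strand) encodes p15, an Ink4 protein known as a target of TGF-beta signaling, and it neighbors Cdkn2a on chromosome 4. It was at 0.852, 0.784 and 0.897 RPKM in siNC and at 0.769, 0.538 and 0.641 RPKM in siQk, from 62 to 165 tags per library. All siQk values were below all siNC values, as for 16.4% of tested genes, although siQk replicate 1 lay close to siNC replicate 2. The log2 fold change was -0.52 (95% interval -0.99 to -0.04, edgeR FDR 0.0815), and its unadjusted P of 0.0367 did not pass the cutoff. Cdkn2a and Cdkn2b thus had point estimates on opposite sides of 0.

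Cdkn2c and Cdkn2d encode p18 and p19Ink4d, the Ink4 proteins best known from dividing progenitors and from postmitotic neural cells. Cdkn2c (Entrez gene 12580, chr4:109660876-109667189, minus strand) was at 7.53, 9.53 and 8.18 RPKM in siNC and at 11.7, 10.9 and 8.58 RPKM in siQk. The siQk replicate 3 library lay within the siNC range, while the other siQk libraries lay above it (log2 fold change 0.15, 95% interval -0.17 to 0.48, FDR 0.401 from edgeR). Without siQk replicate 3 the log2 fold change was 0.27 (FDR 0.14), and without siQk replicate 1 it was 0.05. Cdkn2d (Entrez gene 12581, chr9:21288410-21291407, minus strand) was at 23, 19.8 and 25 RPKM in siNC and at 28.9, 24.6 and 27.7 RPKM in siQk, with overlap between the groups (log2 fold change 0.11, 95% interval -0.16 to 0.38, FDR 0.469 from edgeR). Without siNC replicate 2, the lowest library, the Cdkn2d log2 fold change was 0.01.

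**Figure D2:**
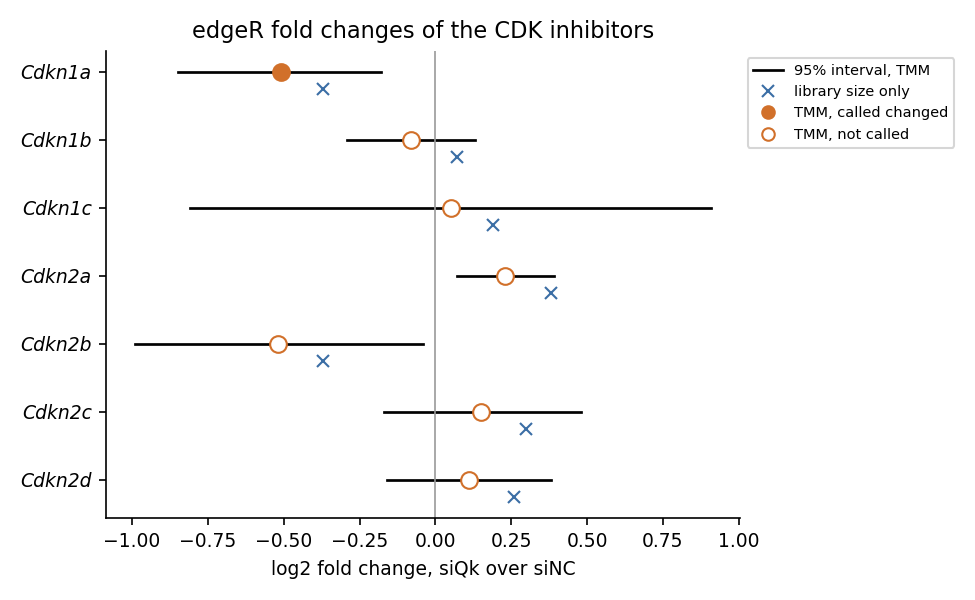
edgeR log2 fold changes (siQk over siNC, n = 3 each) with TMM factors (circles, filled where called, lines for 95% intervals) and with library size only (crosses). The intervals of Cdkn1a, Cdkn2a and Cdkn2b lie off 0, only Cdkn1a was called, and library size only moves every gene to the right.

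Library scaling set part of these values. Scaling by library size only placed the median over all tested genes at a log2 fold change of 0.16 in place of 0.01, and the 7 inhibitors shifted upward with it. Ratios between 2 genes of the same library do not depend on that choice. The ratio of Cdkn2a to Cdkn1a RPKM was 1.45, 1.24 and 1.06 in siNC and 1.91, 2.42 and 1.95 in siQk. The siQk libraries all lay above the siNC libraries, and the siQk mean was 168% of the siNC mean. The ratio of Cdkn2d to Cdkn1a was 1.11 ± 0.194 in siNC and 1.71 ± 0.116 in siQk (SD, n = 3 each), and that of Cdkn1a to Cdkn1b was 0.593 ± 0.0839 and 0.437 ± 0.0594, in both cases without overlap. These 3 ratios, and that of Cdkn2a to Cdkn1b, were chosen after the values of the single genes had been seen. Their lack of overlap follows in part from that choice and is no test of the pairs.

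**Figure D3:**
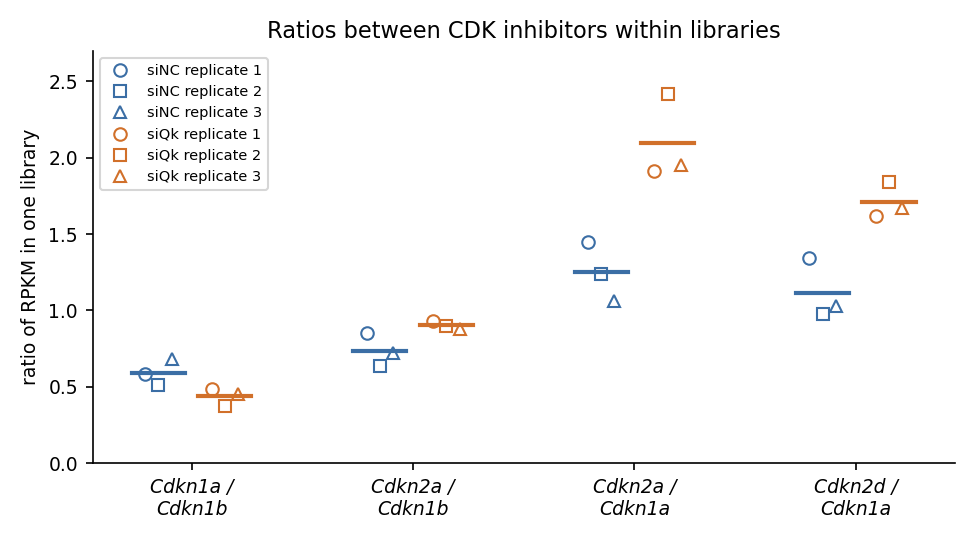
Ratios of RPKM between pairs of CDK inhibitors within each library (blue siNC, orange siQk, shapes for replicate numbers, bars for means of 3). The ranges of siNC and siQk do not overlap for any of the 4 ratios, and Cdkn2a over Cdkn1a differs most, with means of 1.25 and 2.09. The pairs were chosen after the single-gene values had been seen, so that the lack of overlap is no test.

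The order of levels, which RPKM allows because it is scaled by exon length, was the same in both groups. By group mean it ran Cdkn1b, Cdkn2a, Cdkn2d, Cdkn1a, Cdkn2c, Cdkn1c and Cdkn2b. In siNC the ranges of Cdkn2a, Cdkn2d and Cdkn1a overlapped their neighbors (means 25.3, 22.6 and 20.6 RPKM), as did those of Cdkn1c and Cdkn2b, so that their order there is not firm. In siQk no neighboring ranges overlapped. Summed over each family, Ink4 RPKM was 57.1 ± 2.54 in siNC and 71.1 ± 3.87 in siQk (SD, n = 3 each), without overlap, while Cip/Kip RPKM was 56.5 ± 7.98 and 53.6 ± 2.87, with overlap. Of single tested genes, 41.9% likewise had every siQk library above every siNC library, and no Ink4 gene was called. The Ink4 sum can hold p19Arf transcripts, since the Cdkn2a value counts both products of that gene. Division by TMM factors narrowed the Ink4 difference, with means of 60.2 in siNC and 67.5 in siQk. The sum over all 7 genes averaged 114 RPKM in siNC and 125 RPKM in siQk as deposited, but 120 and 118 after that division, so that its direction turned with the scaling. The Ink4 genes, with any p19Arf transcripts included, accounted for 54.4%, 47.4% and 49.6% of the summed RPKM in siNC and for 57.6%, 57.7% and 55.8% in siQk. The share of Cdkn1a was 18.1% ± 1.88 in siNC and 12.8% ± 1.29 in siQk, that of Cdkn2a 22.3% ± 1.57 and 26.5% ± 0.74, and that of Cdkn1b 30.6% ± 2.88 and 29.3% ± 1.27. In bulk samples, fewer cells of a type and less RNA per cell cannot be told apart.

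The kinases and cyclins that the inhibitors bind were next compared. Of 10 genes, 9 were tested, 2 were called higher and 1 was called lower, near the 31% over all tested genes, and the median log2 fold change was 0.24 against 0.01 over all tested genes. Cdk4, the kinase that Ink4 proteins bind, was at 425, 396 and 436 RPKM in siNC and at 538, 511 and 464 RPKM in siQk (log2 fold change 0.11, FDR 0.325 from edgeR). Its RPKM was 7.33 ± 0.176 times the Ink4 sum in siNC and 7.09 ± 0.378 times in siQk (SD, n = 3 each), with overlapping ranges. That sum again includes any p19Arf transcripts. Cdk6, the other Ink4 target, did not pass the filter and stayed at or below 0.0138 RPKM, so that Cdk4 was the Ink4-bound kinase detected at an appreciable level. Cdk2, the main kinase held by Cip/Kip proteins, averaged 3.79 ± 0.71 RPKM with control siRNA and 5.58 ± 0.507 RPKM with Qk siRNA (SD, n = 3 each; log2 fold change 0.40, FDR 0.101 from edgeR).

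Among the cyclins, 1 was called higher and 1 lower. Ccna2, the S and G2 phase cyclin, rose from 9.50, 9.50 and 7.56 RPKM in siNC to 36.4, 22.2 and 19.4 RPKM in siQk (log2 fold change 1.40, FDR 0.00719 from edgeR), and Cdk1, the mitotic kinase, rose by 1.38 on the log2 scale (FDR 0.00597). Ccnd3, a D-type cyclin, fell from 17.2 ± 2.01 to 13.3 ± 1.54 RPKM (log2 fold change -0.52, FDR 0.00757), a call lost with library size only (-0.37). The D-type cyclins Ccnd1 (log2 fold change 0.35) and Ccnd2 (0.21) and the E-type cyclins Ccne1 (0.24) and Ccne2 (-0.20) were not called. The median log2 fold change of the 14 proliferation genes was 1.54, with 11 called higher, 0 lower and 3 not called, and that list largely repeats genes already known to be higher in these siQk libraries. Cdc25c, Ccnb1, Bub1 and Mki67 had the largest values (log2 fold changes 2.23, 1.79, 1.75 and 1.73). The summed RPKM of all 14 ranged from 84.2 to 102 in siNC and from 143 to 247 in siQk.

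CDK inhibitor proteins are also controlled by degradation, so that genes of their turnover were examined. Of 12 genes, 4 were called higher, 0 lower and 8 not called, with a median log2 fold change of 0.15. The total share called was near the 31% over all tested genes. All 4 calls were higher, a direction called for 13.8% of tested genes, against 17.2% called lower. In Cks1b, Dtl and Cdc20 the siQk values fell in order from replicate 1 to replicate 3, as in Mki67 and Ccnb1 of the proliferation list. Whether these calls hold more than the rise of the proliferation genes was not tested. Cks1b, the cofactor with which the SCF ubiquitin ligase recognizes p27, rose from 16.2, 12.2 and 20.3 RPKM in siNC to 42.8, 40.1 and 27.2 RPKM in siQk (log2 fold change 1.03, FDR 0.015 from edgeR), a call lost without siQk replicate 1 or 2 (0.90 and 0.97) and with the replicate number as a block (FDR 0.0469, with P over the cutoff). Its partner Skp2, the F-box subunit, had means of 5.13 ± 0.853 and 8.27 ± 1.38 RPKM (SD, n = 3 each), which missed the cutoff on P (log2 fold change 0.54, FDR 0.0569). Dtl, the substrate receptor through which the CRL4 ligase degrades p21 in S phase, rose by 1.27 on the log2 scale (FDR 0.0119). Cdc20, which directs the anaphase-promoting complex to its substrates, rose by 1.77 (FDR 0.00212), and Usp19, a deubiquitinase, by 0.24 (FDR 0.0169). The Usp19 call was lost with the replicate block (FDR 0.0688) and without any single siQk library, and the Dtl call without siNC replicate 2 (FDR 0.0359, with P over the cutoff). The core subunits Skp1a, Cul1, Rbx1, Cul4a and Ddb1 had log2 fold changes from -0.01 to 0.14 and were not called. Rnf123 and Ubac1, the KPC ligase of p27, were at 0.16 and -0.25 and were not called.

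**Figure D4:**
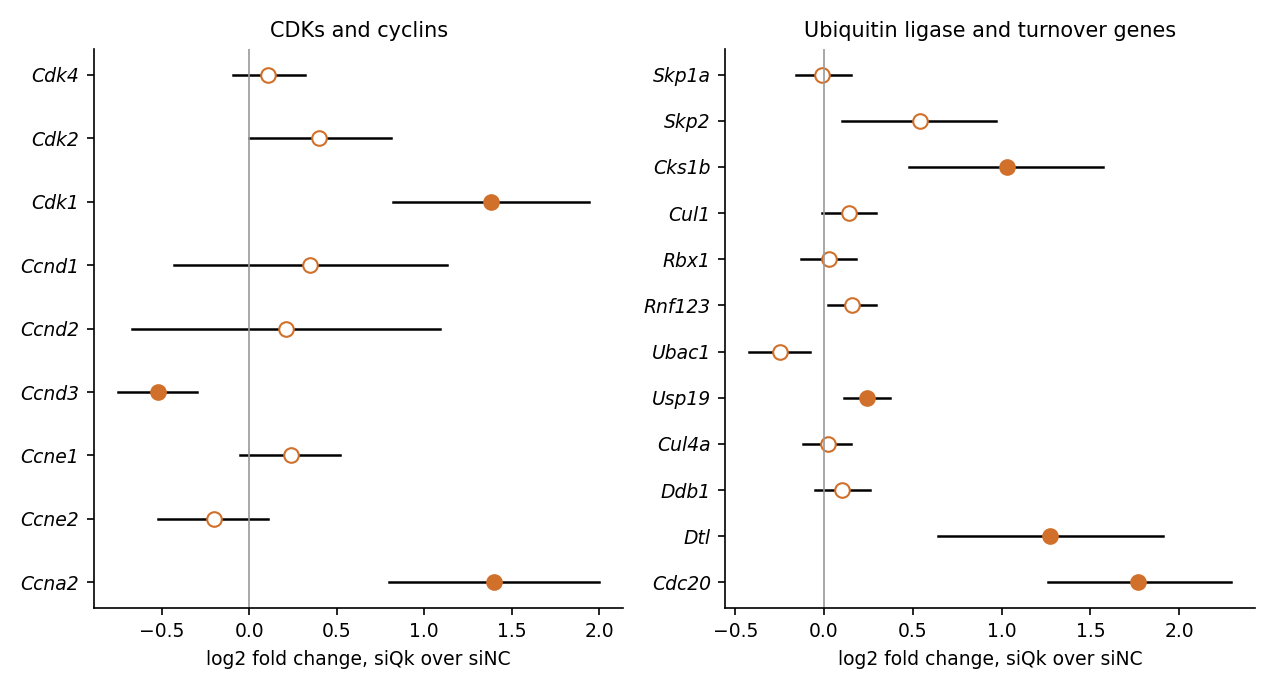
edgeR log2 fold changes (siQk over siNC, n = 3 each, TMM factors) with 95% intervals of 9 tested CDK and cyclin genes (left) and 12 genes of inhibitor turnover (right), filled where called. Cdk1, Ccna2, Cks1b, Dtl and Cdc20 lie above 1, Usp19 at 0.24, and Ccnd3 is the sole gene called lower.

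Of 19 regulators that act on transcription of the inhibitors, 3 were called higher and 2 lower, which is not above the 31% called over all tested genes, with a median log2 fold change of 0.06. Myc, which represses Cdkn1a and Cdkn2b, rose from 16.3, 13.6 and 19.1 RPKM in siNC to 34.6, 40.1 and 25.9 RPKM in siQk (log2 fold change 0.88, FDR 0.0108 from edgeR), and its antagonist Mxi1 fell from 29.5 ± 2.90 to 19.0 ± 0.207 RPKM (log2 fold change -0.78, FDR 0.00182). Of the TGF-beta mediators, Smad3 fell by 0.59 on the log2 scale (FDR 0.00997) and Smad4 rose by 0.29 (FDR 0.0102). Ezh2, the Polycomb methyltransferase known to silence the Cdkn2a locus, rose by 0.33 (FDR 0.026), a call lost with the replicate block (FDR 0.0506) and on leaving out siNC replicate 1, siNC replicate 3, siQk replicate 1 or siQk replicate 2. Trp53 was at 34.6 ± 7.43 and 54.1 ± 7.74 RPKM (SD, n = 3 each; log2 fold change 0.50, edgeR FDR 0.0408) and missed the cutoff with an unadjusted P of 0.014.

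Of 13 tested p53 target genes other than Cdkn1a, 3 were called higher, 2 lower and 8 not, near the 31% over all tested genes, with a median log2 fold change of 0.08. Gadd45a and Ccng1 fell (log2 fold changes -0.90 and -0.75, FDR 0.00818 and 0.00452 from edgeR), while Plk2 and Btg2 rose (0.80 and 0.65, FDR 0.00669 and 0.0209). The Btg2 call was lost with the replicate block (FDR 0.0614) and without siQk replicate 1 or 2 (FDR 0.0764 and 0.0611). Downstream of the CDKs, 1 of 9 Rb and E2F genes was called higher and 2 were called lower, again near that share. E2f2 rose by 1.26 on the log2 scale (FDR 0.00316), E2f5, which partners the Rb relatives in resting cells, fell from 20.9 ± 0.585 to 9.15 ± 0.543 RPKM (log2 fold change -1.34, FDR 0.000348), and Rb1 was at 53.2 ± 11.4 and 40.9 ± 2.51 RPKM (log2 fold change -0.52, FDR 0.02), a call lost under 10 of 17 alternative settings.

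Cell markers were also counted, beside the 17.2% called lower and 13.8% called higher over all tested genes. Of the 10 myelin and mature OL genes, 8 were called lower and 0 higher, with a summed RPKM of 3370 to 5920 in siNC and 1410 to 2150 in siQk. Of the 9 OPC markers, 4 were called higher and 1 lower, with sums of 1040 to 1120 and 1260 to 1420 RPKM. Of 7 tested astrocyte markers, 4 were called lower and 0 higher (sums 289 to 410 and 284 to 307 RPKM). Of 6 tested neuron markers, 2 were called higher and 0 lower (sums 136 to 204 and 104 to 151 RPKM), a total share near the 31% over all tested genes. Of 7 microglia markers only 1 was tested, P2ry12, and it was called lower (log2 fold change -3.16, FDR 0.00886 from edgeR). The part of maturation or cell makeup in the levels of Cdkn1a and Cdkn2a was not tested.

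The transcripts whose pattern lay nearest to each inhibitor were found by the root mean square difference of log2 CPM, centered on each gene's mean, over the 6 libraries and among 10039 genes. For Cdkn1a they were Pmm1 and 4932702P03Rik, with differences of 0.071 and 0.076 against a range of 0.98 for Cdkn1a itself. For Cdkn1b they were Clip2 and Kif13b (0.031 and 0.034, against a range of 0.32), and for Cdkn2a they were Lrrc14 and Polr2b (0.017 and 0.019, against 0.32). Cdkn2b lay nearest to Ddx19a and Wdsub1 (0.066 and 0.080), Cdkn2c to Zfp825 and Rrm1 (0.062 and 0.064), Cdkn2d to Shisa5 and Cars (0.032 and 0.035), and Cdkn1c to Me3 and Apbb2 (0.056 and 0.17). The measure compares shapes over 6 libraries that differ in group, and it favors genes of small range.

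**Figure D5:**
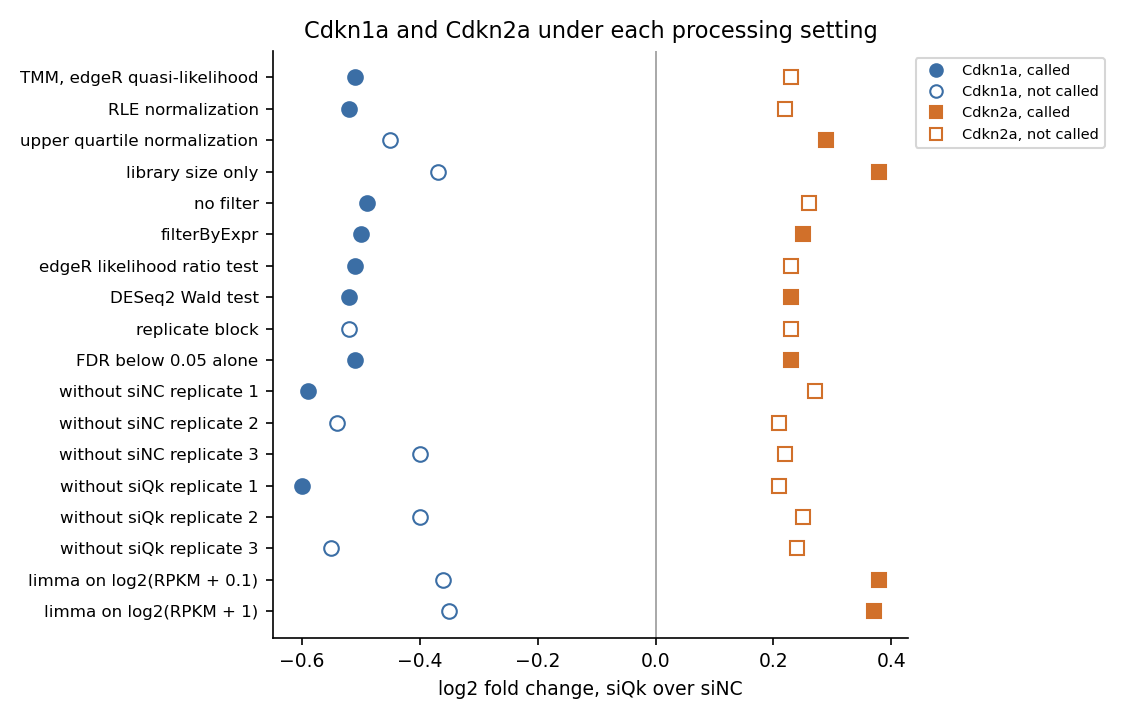
edgeR, DESeq2 and limma log2 fold changes (siQk over siNC) of Cdkn1a (blue circles) and Cdkn2a (orange squares) with the main fit on top and 17 alternative settings below, filled where called. Cdkn1a stays between -0.60 and -0.35 and is called under 8 of the 17, Cdkn2a stays between 0.21 and 0.38 and is called under 7, and the signs do not change.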

How the data were processed

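RNA of mOPCs was sequenced by the authors as poly-A selected, paired-end libraries, aligned to mm10 with OLego and quantified with Quantas. Versions and annotation are not given in the sources used here. The authors deposited per gene and library an expected count of tags (not normalized), the exon length, and RPKM, which recomputation showed to equal tags scaled by exon length and library total. The labels call the libraries of a group biological replicates, and the paper states that RNA came from independent replicates of cultured cells. Whether the OPCs of each replicate were purified separately is not stated. P-values set the difference between the groups against the spread between libraries of a group. Replicates of a group differed beyond sampling noise. Chi-square per degree of freedom was 185 to 326 between siNC libraries and 36.3 to 74 between siQk libraries.

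Expected counts were rounded. Genes with average logCPM over 0 (12505) were tested with edgeR 4.0.16 in R 4.3.3 (quasi-likelihood test, TMM, group only, the tool and cutoffs of the study), adjusted over all of them. Each standard error was taken as the size of the log2 fold change over the root of its F statistic, and intervals use the t quantile at 95%. Levels were compared by exact permutation tests. The fit was tested on simulated data. It called 80% and 94% of genes given log2 changes of 1 and -1, and 50% and 36% of those given 0.5 and -0.5. Of its calls, 12.2% were unchanged genes. The criterion for recovery was eased to the mean of both directions after the first values were seen. Changes of the size of most members can thus go uncalled in such simulated data. With so few changed genes in the simulation, its rates need not hold for the mOPC libraries. Coordinates, overlaps and 3'UTRs of at least 50 bases come from GENCODE M21 (GRCm38, the assembly of mm10), and sites from its transcript sequences.

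The members and gene lists were chosen with earlier results of these data known. Named were all members, Qk, the CDKs and cyclins, called genes of the turnover and transcription lists, up to 4 called genes with the largest changes from other lists, and the 2 nearest patterns per member. Skp2, Trp53, Rnf123, Ubac1, the core ligase subunits and the cell markers given by name were named with their values in view, as were the ratios. Alternatives were other normalizations, filters and cutoffs, DESeq2 1.42.0, edgeR's likelihood ratio test, limma 3.58.1 on RPKM, the replicate number as a block, and each library left out.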

Additional observations from a re-analysis of the deposited data

How the results depend on the processing

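Qk kept its direction and call under all 17 alternatives. For the 7 CDK inhibitors, 96 of 119 alternative values kept both. Cdkn1a lost its call with upper quartile normalization (log2 fold change -0.45), library size only (-0.37), the replicate block (-0.52, FDR 0.0507) and limma on log2(RPKM + 0.1) or log2(RPKM + 1) (-0.36 and -0.35). Cdkn2a was called with upper quartile normalization (0.29), library size only (0.38), filterByExpr (0.25), DESeq2 (0.23), FDR below 0.05 alone (0.23) and limma (0.38 and 0.37). Cdkn1b turned positive with library size only (0.07) and limma (0.08 and 0.07).

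Leaving out 1 library gave log2 fold changes from -0.60 to -0.40 for Cdkn1a, from -0.15 to 0 for Cdkn1b (turned, at 0.00, without siNC replicate 2), from -0.15 to 0.56 for Cdkn1c (turned without siNC replicate 1 or 3, or siQk replicate 3 at -0.09), from 0.21 to 0.27 for Cdkn2a, from -0.66 to -0.40 for Cdkn2b, from 0.05 to 0.27 for Cdkn2c and from 0.01 to 0.18 for Cdkn2d. Ccnd2 ranged from -0.07 (without siQk replicate 3) to 0.60. Changed genes numbered from 2470 (without siQk replicate 1) to 3712, and those higher in siQk from 1010 to 1610. With library size only and limma at both pseudocounts, 2989, 3087 and 3092 genes were higher and 1365, 1339 and 1320 lower. Lower genes made up 55.4% of calls with TMM, 44.4% with upper quartile and 31.4% with library size only. Dividing RPKM by TMM factors gave Ink4 sums of 60.2 (siNC) and 67.5 (siQk) RPKM and inhibitor sums of 120 (siNC) and 118 (siQk), which turned the latter's direction. The causes were not tested.

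Whether libraries with the same replicate number were prepared together is not stated. Their deviations from the group means were not positively correlated (-0.053, -0.152 and -0.34), which cannot settle that question. With the replicate block 2796 genes were changed, and of the inhibitors it changed the call of Cdkn1a alone. Cks1b, Usp19, Ezh2, Rb1 and Btg2 lost theirs as well. Cdkn1c and Cdkn2b rest on 62 to 342 tags per library.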

Other observations

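Of 3 other genes with similar symbols, which are not CDK inhibitors of these families and were chosen after their values were seen, Cdkn3, a phosphatase that acts on CDKs, rose from 0.384, 0.601 and 0.901 RPKM in siNC to 2.72, 2.07 and 1.46 RPKM in siQk (log2 fold change 1.57, standard error 0.33, edgeR FDR 0.0124). Cdkn2aip and Cdkn2aipnl had log2 fold changes of 0.04 and 0.29 and were not called (edgeR FDR 0.703 and 0.0432, the latter with an unadjusted P of 0.0151).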
